A study of Mus musculus with 4 samples.

Results

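Small leucine-rich proteoglycans (SLRPs) were followed as a set of 8 genes, namely Dcn, Bgn, Lum, Fmod, Ogn, Aspn, Prelp and Podn. They were chosen by name from the 32286 genes in the files, with earlier results of these data known. These genes encode secreted proteins with a leucine-rich repeat core, most of which carry glycosaminoglycan chains. They bind fibrillar collagens and control how thick and how regularly spaced the fibrils become, and several of them bind growth factors or immune receptors. In the lung they are products of fibroblasts, smooth muscle and mesothelium, and the matrix they belong to is remodeled in fibrosis.

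Lungs were profiled by single-cell RNA-seq on day 14 after intratracheal bleomycin (0.8 U/kg), with 2 mice of each genotype, WT and Tubb3-/-. Tubb3 encodes β-III tubulin. The Tubb3-/- mice were homozygous for a Tubb3-Cre knockin, in which Cre stands at the start of Tubb3, so that loss of Tubb3 and the inserted Cre cannot be told apart, and the WT mice were littermates without it. The mice were between 8 and 11 weeks old, and untreated lungs were not analysed here, so no value below is a response to bleomycin. Each mouse gave a sample of whole lung cells, depleted of red cells (TER-119). It also gave a sample of mesenchymal cells, depleted of endothelial, immune, epithelial and red cells (CD31, CD45, EpCAM, TER-119). Samples were tagged, and those of the 4 mice were pooled by kind. The mesenchymal pool was then enriched for mural cells by sorting and mixing MCAM+ PDGFRα- and MCAM- cells 1:1. The 2 pools were split by tag into 8 sets of cells, called libraries here. The mice of a pool thus shared sorting and capture.

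The 8 libraries held 32121 cells and 498837633 gene UMIs (unique molecular identifiers), with a median between 9186 and 16299 UMIs per cell, and 30018 cells passed the limits and the removal of doublets. Median depth was higher in the Tubb3-/- libraries of both kinds. Tubb3 checked the labels, at 1.96 and 0.856 CPM (UMIs of a gene scaled to a common total of gene UMIs) in the whole-cell libraries of WT mice against 0.281 and 0.321 in those of Tubb3-/- mice. Libraries of the same pool shared 0 cell barcodes, which the split of a pool by tag fixes in advance and which is no check. Libraries of different pools shared at most 0.207%.

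Cells were grouped by detected marker transcripts. Cells with a UMI of Pdgfra, the receptor that marks lung fibroblasts, were split by Pi16 (adventitial), Inmt (alveolar), Hhip (peribronchial), at least 2 UMIs of Cthrc1 (fibrotic), or none of these, and cells positive for Higd1b or Myh11 (mural) or for Msln (mesothelial) formed 2 more groups. Cells that matched several populations (7875) or several Pdgfra states (3154) were dropped. The groups then held 106 Pi16, 1140 Inmt, 150 Hhip, 153 Cthrc1 and 527 other Pdgfra cells, 6483 mural cells and 788 mesothelial cells. The WT mice had 16 and 12 Cthrc1 cells and the Tubb3-/- mice 77 and 48, so the levels of WT mice in this state rest on few cells. UMIs were summed per mouse and group, since cells are not replicates, and all levels below are CPM of 4 mice.

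The groups were checked against marker lists, each of which contains the gene that chose the cells. Inmt cells had 4078 to 8437 CPM of alveolar fibroblast markers and Cthrc1 cells 10660 to 11600 CPM of fibrotic fibroblast markers, with 167.9 to 342.2 CPM of immune markers in the latter. The mural group was mainly smooth muscle, with 14660 to 20600 CPM of smooth muscle markers against 344.8 to 639.8 of pericyte markers, and only 130 of its cells had Higd1b without Myh11. It also had 334.9 to 530.1 CPM of peribronchial markers. Smooth muscle of airways and of vessels was not told apart, so the name mural holds only in part. Pi16 cells had 744.8 to 942.0 CPM of adventitial markers but 3408 to 19710 of immune and 289 to 33790 of epithelial markers. The other Pdgfra cells had 10880 to 16350 CPM of immune markers and mesothelial cells 6732 to 9629 beside 2101 to 3708 of mesothelial markers. Hhip cells had 395.7 to 847.4 CPM of peribronchial markers beside 620.0 to 1786 of alveolar, 3240 to 7013 of immune and 193.2 to 17980 of epithelial markers. Fibrotic fibroblast markers were at 2994 to 5042 CPM in Hhip cells, against 1533 to 3572 in Inmt cells. The part of the fibrotic state in the levels of Hhip cells was not tested. The label of the Pi16, Hhip, other Pdgfra and mesothelial groups thus held only in part. Immune markers were also found in Inmt cells (2034 to 3902 CPM) and in mural cells (3234 to 5958 CPM). Each level was therefore also taken with at least 2 UMIs per marker (3 for Cthrc1), where Pi16 cells had 1733 to 4105 CPM of adventitial and 257 to 3328 of immune markers, and without any cell that had Ptprc, Pecam1, Cdh5 or Epcam. The part of these other cells in the results was not tested beyond those alternatives.

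Every gene was also found at a low level in cells that should lack it, and these levels are the background of the values below. In Ptprc cells (immune) Dcn had 37.5 to 91.8 CPM and Bgn 59.5 to 107 CPM. In the same cells Lum had 6.2 to 18.2, Fmod 1.52 to 7.12, Ogn 12.2 to 21, Aspn 5.0 to 8.81, Prelp 9.53 to 12.8 and Podn 2.32 to 4.88 CPM. Pecam1 cells (endothelial) had up to 287 CPM of Dcn, 267 of Bgn and 44.6 of Aspn. Dcn in other Pdgfra cells (192.5 to 333.2 CPM) overlapped the range of endothelial cells, as did the WT 2 value of Dcn in mural cells (201.4 CPM), and neither is read as expression.

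**Figure D1:**
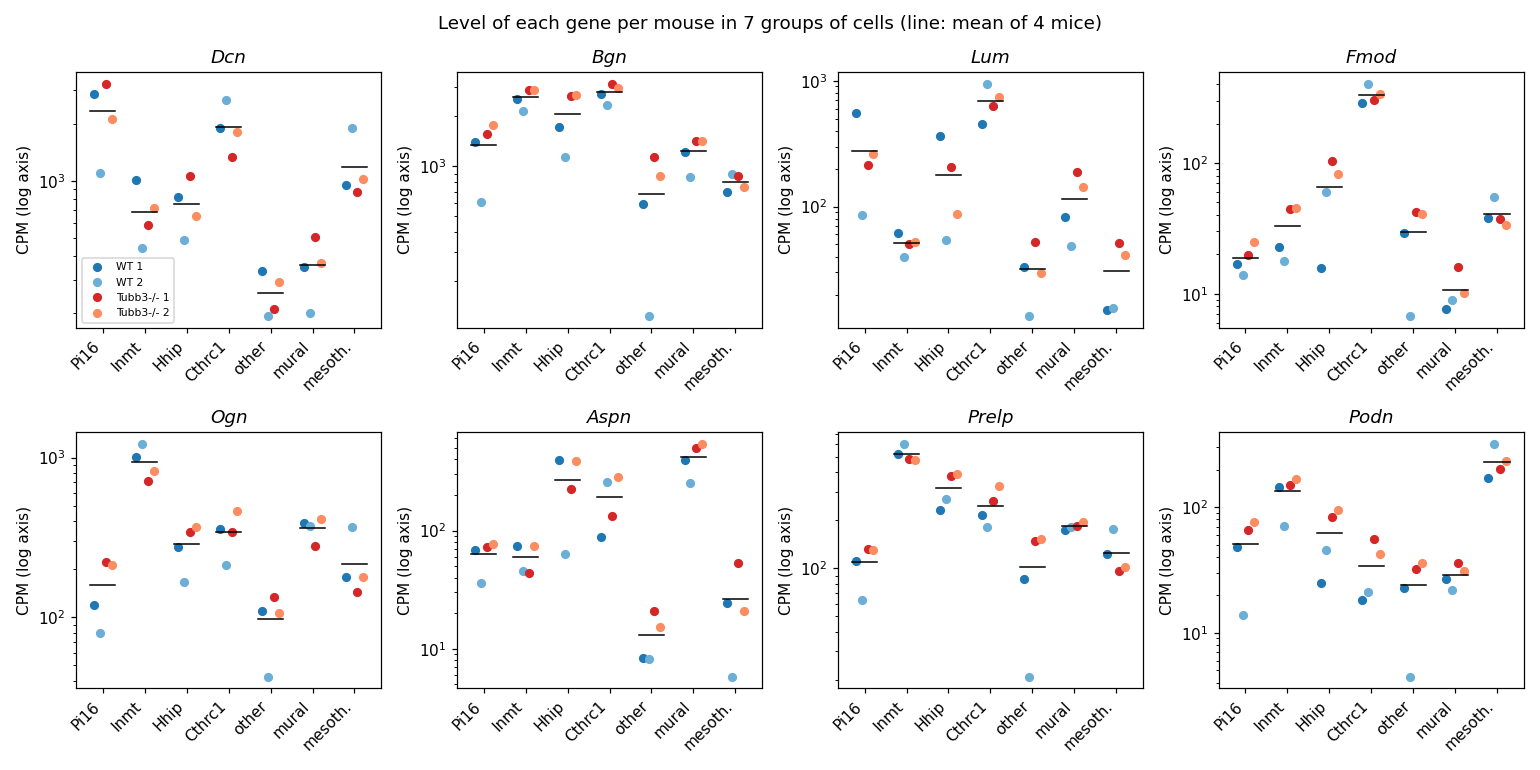
CPM of each gene (log axis) in 7 groups of cells, 1 point per mouse (blues: WT, reds: Tubb3-/-), with a line at the mean of 4 mice. Fmod in Cthrc1 cells (286.9 to 405.5 CPM) and Ogn in Inmt cells (714.4 to 1221 CPM) stand above all other groups. Aspn has its highest mean in mural cells, where its range overlaps those of Hhip and Cthrc1 cells.

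Fmod, which encodes fibromodulin, a regulator of early collagen fibril assembly and crosslinking, separated the Cthrc1 state from all other groups. It lies on mm10 chr1:134037254-134048277 (plus strand, ENSMUSG00000041559). The sequence before its start is shown because its level set 1 state of fibroblasts apart. It was read from the RefSeq table for GRCm38.p6 at chr1:134037004-134037253, plus strand, and would show in capitals any of 5 motifs searched on both strands, namely the TATA box TATAAA, the AP-1 motif TGANTCA, the RUNX motif TGTGGT, the SMAD motif CAGACA and the CArG box.
Fmod: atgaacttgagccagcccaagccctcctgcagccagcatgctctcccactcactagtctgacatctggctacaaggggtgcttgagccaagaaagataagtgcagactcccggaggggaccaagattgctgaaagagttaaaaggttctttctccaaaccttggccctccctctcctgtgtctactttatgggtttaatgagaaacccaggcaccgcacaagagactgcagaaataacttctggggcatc
None of the 5 motifs was in this window, which says only that these letters are absent. Among 32851 promoters of this length, 12.4% held TATAAA, 6.75% TGANTCA, 14.0% TGTGGT, 17.1% CAGACA and 1.47% a CArG box.

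In Cthrc1 cells Fmod had 286.9 and 405.5 CPM in the WT mice and 303.9 and 334.8 CPM in the Tubb3-/- mice. In Inmt cells it had 22.89 and 17.88 CPM in the WT mice against 44.52 and 45.47 CPM. All 4 mice were far higher in the fibrotic state, and the next group, Hhip cells, reached only 103.6 CPM. The log2 difference of Cthrc1 against Inmt cells was 3.41 ± 0.34 (SE, 4 mice as blocks, adjusted p = 3.89e-07 by quasi-likelihood testing in edgeR, corrected after Benjamini and Hochberg over 13090 genes). Against Pi16 cells it was 4.32 ± 0.45 (adjusted p = 6.41e-07), and the call held in 13 of 13 alternatives for both comparisons. After thinning to 2000 UMIs per cell, 31.2% to 50.0% of Cthrc1 cells had a UMI of Fmod, against 3.26% to 8.03% of Inmt cells and 0.116% to 0.763% of Ptprc cells. Without thinning the mean shares over mice were 75.8%, 23.4% and 1.88%. Median depth per cell was 18540 to 23737 UMIs in Cthrc1, 13609.5 to 18476 in Inmt and 7056.5 to 8506 in Ptprc cells.

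Lum, for lumican, a keratan sulfate proteoglycan that also limits fibril diameter, followed the same groups more loosely. It lies at chr10:97565128-97572703 (plus strand, ENSMUSG00000036446), 47.0 kb from Dcn, and the annotation has no protein-coding gene between them. It had 454.8 and 950.4 CPM in Cthrc1 cells of WT mice and 624.9 and 737.9 CPM in those of Tubb3-/- mice. In Inmt cells it had 61.65, 39.93, 50.02 and 52.65 CPM (WT 1, WT 2, Tubb3-/- 1 and Tubb3-/- 2, an order kept below), so that every Cthrc1 value was above every Inmt value. By the mean Pi16 cells lay between them, but they spread widely, at 549.6, 85.64, 213.7 and 262.1 CPM, and stood above the Cthrc1 cells in WT 1. The log2 difference from Inmt cells was 3.90 ± 0.50 in Cthrc1 cells (adjusted p = 6.82e-06) and 2.20 ± 0.48 in Pi16 cells (adjusted p = 0.00218), and both calls held in 13 of 13 alternatives. Lum was also called higher in Cthrc1 than in Pi16 cells (1.71, adjusted p = 0.0116), but with 2 UMIs per marker this difference was 0.026 (adjusted p = 0.992). It was not called without other lineages (1.46, adjusted p = 0.112), in the mural cell-enriched libraries alone or without the mouse as a block. Nor was it called without WT 2, without Tubb3-/- 1 or without Tubb3-/- 2.

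Dcn, for decorin, the founding member of the family, which binds collagen I and TGF-beta, was higher in the Pi16 and Cthrc1 states than in Inmt cells. It lies at chr10:97479609-97518143 (plus strand, ENSMUSG00000019929). In Pi16 cells it had 2878, 1094, 3265 and 2131 CPM, in Cthrc1 cells 1911, 2670, 1339 and 1817 CPM, and in Inmt cells 1012, 439.3, 583.7 and 714 CPM. The lowest Pi16 and the lowest Cthrc1 value lay above the highest Inmt value. The log2 difference from Inmt cells was 1.63 ± 0.35 in Pi16 cells (adjusted p = 0.00204) and 1.56 ± 0.36 in Cthrc1 cells (adjusted p = 0.00338). Each call was lost only in the mural cell-enriched libraries alone. Mesothelial cells had 955.2, 1890, 877.5 and 1021 CPM, which overlapped the Inmt range, and were not called (0.68 ± 0.35, adjusted p = 0.133). Without WT 2 this difference was 0.11, and with 2 UMIs per marker it was 1.25 (adjusted p = 0.000186). With 2 UMIs per marker, Dcn reached 6003 to 9467 CPM in Pi16 cells and the difference from Inmt cells grew to 3.26 (adjusted p = 2.77e-09). Under the same rule Cthrc1 cells were below Pi16 cells by a log2 difference of -2.13 (adjusted p = 1.19e-06), where the 1-UMI rule gave -0.073 (adjusted p = 0.926).

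Ogn and Prelp showed the opposite arrangement, with their highest level in the alveolar Inmt state. Ogn encodes osteoglycin (mimecan), and Prelp a basement membrane SLRP whose basic end binds heparan sulfate. Ogn lies at chr13:49608046-49624501 (plus strand, ENSMUSG00000021390) and overlaps Cenpp on the other strand, and Prelp at chr1:133910304-133921414 (minus strand, ENSMUSG00000041577), 116 kb from Fmod, where it overlaps Gm15851 on the other strand. Whether counting used strand is not given in the sources used here, so UMIs of these partners cannot be told apart. The sequences before both starts are shown since the 2 genes moved together across the groups. They were read from the same table at chr13:49607765-49608014 (plus strand) and chr1:133921402-133921651 (minus strand).
Ogn: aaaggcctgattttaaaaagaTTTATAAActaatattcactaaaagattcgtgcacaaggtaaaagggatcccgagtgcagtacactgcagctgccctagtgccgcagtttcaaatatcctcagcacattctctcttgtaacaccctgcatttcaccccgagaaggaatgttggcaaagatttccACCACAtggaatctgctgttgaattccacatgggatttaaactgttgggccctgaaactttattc
Prelp: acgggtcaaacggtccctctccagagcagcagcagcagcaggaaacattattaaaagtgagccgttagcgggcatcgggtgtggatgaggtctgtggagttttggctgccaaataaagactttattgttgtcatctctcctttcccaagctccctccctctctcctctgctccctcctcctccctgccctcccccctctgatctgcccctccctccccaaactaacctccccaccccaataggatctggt
The capitals in Ogn mark 2 overlapping TATAAA matches, on the minus strand 229 and on the plus strand 227 bases before the start, and TGTGGT on the minus strand 65 bases before it. Prelp held none of the 5 motifs, so the 2 windows shared none of these letters.

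In Inmt cells Ogn had 1007, 1221, 714.4 and 818.7 CPM and Prelp 517.9, 604.9, 486.7 and 481.7 CPM. The next group of Ogn, mural cells, had 388, 374.5, 277.6 and 414.2 CPM, and that of Prelp, Hhip cells, 230.6, 271.8, 381 and 390.7 CPM. For both genes no value of another group reached the Inmt range. Against Inmt cells Ogn was lower in Pi16 (log2 difference -2.71 ± 0.39, adjusted p = 4.06e-05), Hhip (-1.85 ± 0.37, adjusted p = 0.00447), Cthrc1 (-1.46 ± 0.36, adjusted p = 0.00621), mural (-1.53 ± 0.35, adjusted p = 0.00157) and mesothelial cells (-2.29 ± 0.36, adjusted p = 1.74e-05). Prelp was lower in Pi16 (-2.42 ± 0.37, adjusted p = 7.8e-05), Cthrc1 (-1.09 ± 0.34, adjusted p = 0.0292), mural (-1.66 ± 0.33, adjusted p = 0.000363) and mesothelial cells (-2.25 ± 0.34, adjusted p = 1e-05) but was not called in Hhip cells (-0.89 ± 0.34, adjusted p = 0.172). With 2 UMIs per marker the fall in Pi16 cells was smaller, -1.36 for Ogn and -1.16 for Prelp, and still called. The Hhip call of Ogn was lost without WT 1 and in each kind of library alone. The call in Cthrc1 cells was lost for Ogn without WT 1 and in the mural cell-enriched libraries alone. For Prelp the Cthrc1 call was lost without WT 1, without Tubb3-/- 1, without Tubb3-/- 2 and in the whole-cell libraries alone. Over the 28 sums of 4 mice and 7 groups, log2(CPM + 1) of Ogn and Prelp had r = 0.898, the highest of all pairs of the 8 genes, and these sums share libraries and depth.

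Bgn, for biglycan, a chondroitin and dermatan sulfate proteoglycan that also signals through Toll-like receptors, was high in all named fibroblast states. It lies at chrX:73483602-73495933 (plus strand, ENSMUSG00000031375). It had 2530, 2167, 2888 and 2882 CPM in Inmt cells and 2726, 2344, 3158 and 2973 CPM in Cthrc1 cells, and the 2 ranges overlapped (log2 difference 0.11 ± 0.31, adjusted p = 0.887). Mural cells had 1213, 863.2, 1422 and 1409 CPM and mesothelial cells 693.2, 889.8, 873.2 and 747.1 CPM, all below the lowest Inmt value. The log2 differences from Inmt cells were -1.26 ± 0.31 in mural (adjusted p = 0.00329) and -1.85 ± 0.32 in mesothelial cells (adjusted p = 5.68e-05), and held in 13 of 13 alternatives. A lower level in Pi16 cells (-1.18, adjusted p = 0.00983) was not called with 2 UMIs per marker (-0.20, adjusted p = 0.259). It was also not called without cells of other lineages, in the whole-cell libraries alone or without the mouse as a block. By the share of cells, 86.3% to 91.2% of Inmt and 66.8% to 72.8% of mural cells had a UMI of Bgn at 2000 UMIs per cell, against 11.9% to 13.9% of Ptprc cells. The unthinned means were 95.4%, 88.1% and 40.8%, at median depths of 9086 to 11735 UMIs in mural cells and as given above for the others.

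Aspn, for asporin, which binds collagen and TGF-beta and lacks glycosaminoglycan chains, was the gene of the set with its highest mean in mural cells. It lies at chr13:49544443-49567565 (plus strand, ENSMUSG00000021388), and overlaps Cenpp on the other strand. Omd, another SLRP gene, lies between it and Ogn at gaps of 14.9 and 15.2 kb. Its upstream sequence at chr13:49544193-49544442 (plus strand) is shown for comparison with that of Ogn, its neighbor with another distribution over cells.
Aspn: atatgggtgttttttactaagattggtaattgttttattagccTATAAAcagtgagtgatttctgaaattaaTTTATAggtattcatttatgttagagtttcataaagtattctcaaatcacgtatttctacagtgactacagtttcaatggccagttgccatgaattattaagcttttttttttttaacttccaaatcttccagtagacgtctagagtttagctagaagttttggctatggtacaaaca
The capitals mark TATAAA on the plus strand 207 and on the minus strand 178 bases before the start. No CArG box, the motif of smooth muscle genes, was in the window.

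Aspn had 392.9, 251.7, 495.9 and 541.2 CPM in mural cells, 392.6, 62.94, 222.9 and 385.6 CPM in Hhip cells and 88.52, 257.7, 133.1 and 286.1 CPM in Cthrc1 cells. The mural range overlapped those of Hhip and Cthrc1 cells, and mural cells were not tested against either. In Inmt cells it had 73.61, 45.07, 43.76 and 74.19 CPM, below every mural value, and WT 2 and Tubb3-/- 1 lay at about the highest level of Pecam1 cells (44.6 CPM). The log2 differences from Inmt cells were 2.63 ± 0.41 in mural (adjusted p = 1.83e-05), 1.92 ± 0.41 in Hhip (adjusted p = 0.00878) and 1.71 ± 0.42 in Cthrc1 cells (adjusted p = 0.00642). The mural call held in 13 of 13 alternatives. The Hhip call was lost without WT 1, without Tubb3-/- 2 and in the whole-cell libraries alone. The Cthrc1 call was lost without Tubb3-/- 2 and in the mural cell-enriched libraries alone. Between 42.2% and 46.0% of all Aspn UMIs of whole-cell libraries lay in mural cells. Within them Aspn had 250.9 to 556.6 CPM in cells with Myh11 alone, 327.2 to 726.5 CPM in cells with both markers and 23.4 to 95.8 CPM in cells with Higd1b alone. The cells with Higd1b alone thus lay below the other 2 kinds in every mouse, and their range overlapped that of Pecam1 cells. These 130 cells had 451.7 to 2387 CPM of pericyte markers beside 946.9 to 5611 of endothelial, 194.6 to 13430 of epithelial and 20.48 to 17070 of red cell markers. Cells with both markers had 2805 to 4808 CPM of pericyte, 6480 to 14580 of smooth muscle and 279.3 to 384.4 of endothelial markers. Pericyte markers were thus highest in cells with both markers, and the low Aspn level of cells with Higd1b alone is not read as that of pericytes. The part of endothelial, epithelial and red cells in this low level was not tested.

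Podn, for podocan, an SLRP known for restraining smooth muscle cell growth, was highest in mesothelial cells. It lies at chr4:108014791-108096445 (minus strand, ENSMUSG00000028600) and overlaps Scp2 and Gm23354 on its own strand and Mir6397 on the other, so its counts are uncertain to that extent. Its level was 170.7, 321.2, 201.4 and 233.8 CPM in mesothelial and 145.4, 71.12, 150.2 and 168.4 CPM in Inmt cells. The ranges did not overlap, but the difference was not called (log2 difference 0.72 ± 0.33, adjusted p = 0.0832) until 2 UMIs per marker were asked for (1.29, adjusted p = 1.61e-06) or cells of other lineages were left out (1.46, adjusted p = 1.78e-06). Cthrc1 cells had 18.32, 21.12, 55.39 and 42.52 CPM, below all Inmt values, and mural cells 27.02, 21.89, 36.02 and 31.05 CPM. Podn was called lower than in Inmt cells in Cthrc1 (-1.82 ± 0.39, adjusted p = 0.00206) and mural cells (-2.32 ± 0.33, adjusted p = 7.08e-06), and higher in mesothelial than in Pi16 cells (2.25 ± 0.40, adjusted p = 0.000359). These 3 calls held in 13 of 13 alternatives. A lower level in Pi16 than in Inmt cells (-1.53, adjusted p = 0.00744) was 0.052 (adjusted p = 0.914) with 2 UMIs per marker. It was also not called without cells of other lineages or in the whole-cell libraries alone.

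**Figure D2:**
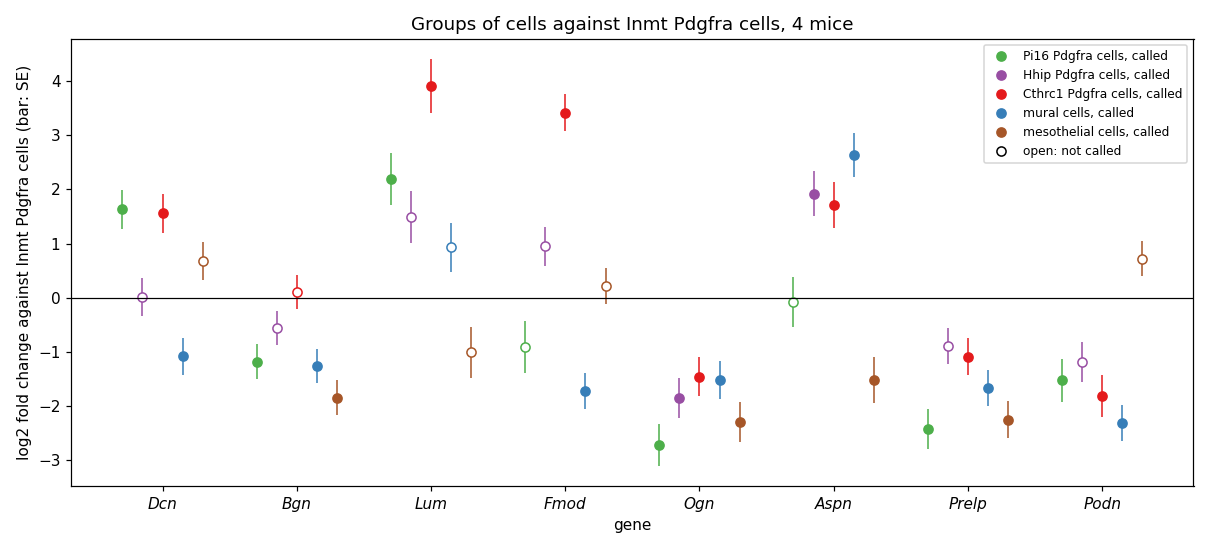
Log2 fold change of each gene in 5 groups of cells against Inmt Pdgfra cells (edgeR, 4 mice as blocks), with bars for the SE, filled points called at an adjusted p of 0.05 and open points not called. Fmod and Lum stand highest in Cthrc1 cells (3.41 and 3.90), while Ogn and Prelp lie below 0 in all 5 groups.

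Counted over the 8 genes, 4 were called higher and 3 lower in Cthrc1 than in Inmt cells, beside 16.6% of the 13090 genes tested. The median of their log2 differences was 0.83, against -0.074 over all genes. In Pi16 against Inmt cells 2 were called higher and 4 lower (21.9% of all genes), with a median of -1.04. In Hhip cells 1 was higher and 1 lower (3.32% of all genes), with a median of -0.28. Without WT 1 the count in Hhip cells was 0 and without Tubb3-/- 2 it was 1, while without WT 2 it was 3. At 2 UMIs per marker 6 of the 8 were called in Hhip cells (7.55% of all genes), among them Fmod (1.56, adjusted p = 0.000578) and Lum (2.08, adjusted p = 0.00155). In mural against Inmt cells 1 was higher and 6 lower (29.4% of all genes; median -1.39), and in mesothelial against Inmt cells 0 were higher and 4 lower (39.7%; median -1.27). For the last, edgeR gave p under 0.05 without adjustment for 1 gene in the higher direction, Podn, and at 2 UMIs per marker Dcn (1.25), Fmod (0.93) and Podn (1.29) were called higher. DESeq2 called 4 of the 8 in this comparison.

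Cthrc1 against Pi16 cells had 6 of the 8 genes called, all higher (24.3% of all genes; median 1.31). Besides Fmod and Lum these were Bgn (1.29), Ogn (1.25), Aspn (1.79) and Prelp (1.33). Without Tubb3-/- 2 only 2 were called. At 2 UMIs per marker only Fmod was called among the 6 (2.99, adjusted p = 1.96e-07; 21.8% of all genes), Ogn turned to -0.04, and Podn was called lower (-1.59, adjusted p = 1.81e-05) as was Dcn. In mesothelial against Pi16 cells Podn was higher and Lum lower (-3.21 ± 0.51, adjusted p = 9.9e-05), where mesothelial Lum was within the Ptprc range in both WT mice (14.98 and 15.56 CPM) and above the Pecam1 range in both Tubb3-/- mice, which made 2 of 8 calls beside 11.5% of all genes (median -0.25). Without WT 2 the count was 4. At 2 UMIs per marker 7 of the 8 were called in this comparison (32.7% of all genes), of which Podn alone was higher.

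**Figure D3:**
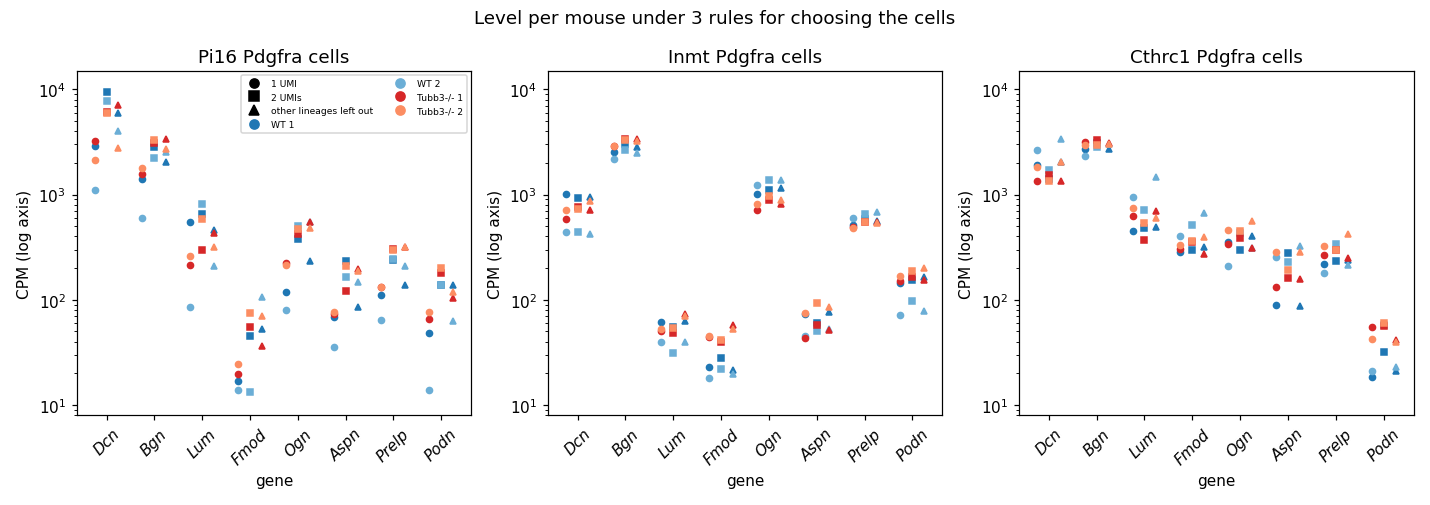
CPM (log axis) of each gene per mouse in Pi16, Inmt and Cthrc1 Pdgfra cells under 3 rules, with circles for 1 UMI per marker, squares for 2 UMIs and triangles with cells of other lineages left out (blues: WT, reds: Tubb3-/-). In Pi16 cells Dcn moved from 1094 to 3265 CPM under the first rule to 6003 to 9467 CPM under the second, and in Inmt and Cthrc1 cells the rules lay close together for most genes.

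The choice of cells moved the mean of every gene by the largest ratio in the other Pdgfra group, where Dcn went from 256.4 to 967.8 CPM and Aspn from 13.19 to 62.16 CPM with 2 UMIs per marker, and next in the Pi16 group. The Pi16 group held 17 to 36 cells per mouse under the 1-UMI rule and 10 to 50 under the 2-UMI rule. Its sums of Sftpc, a product of alveolar type II cells, were 198.3 CPM in WT 1 and 189.3 CPM in Tubb3-/- 1 but 19370 CPM in WT 2 and 33230 CPM in Tubb3-/- 2. Aspn in this group rose from 35.92 to 76.64 CPM under the 1-UMI rule to 122.3 to 234.7 CPM, and its difference from Inmt cells turned from -0.078 (adjusted p = 0.939) to 1.37 (adjusted p = 0.000743). Between 44.3% and 89.1% of the UMIs of a gene in whole-cell libraries lay in cells outside all groups, the largest part for Dcn (77.1% to 89.1%) and the smallest for Aspn (44.3% to 49.7%).

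**Figure D4:**
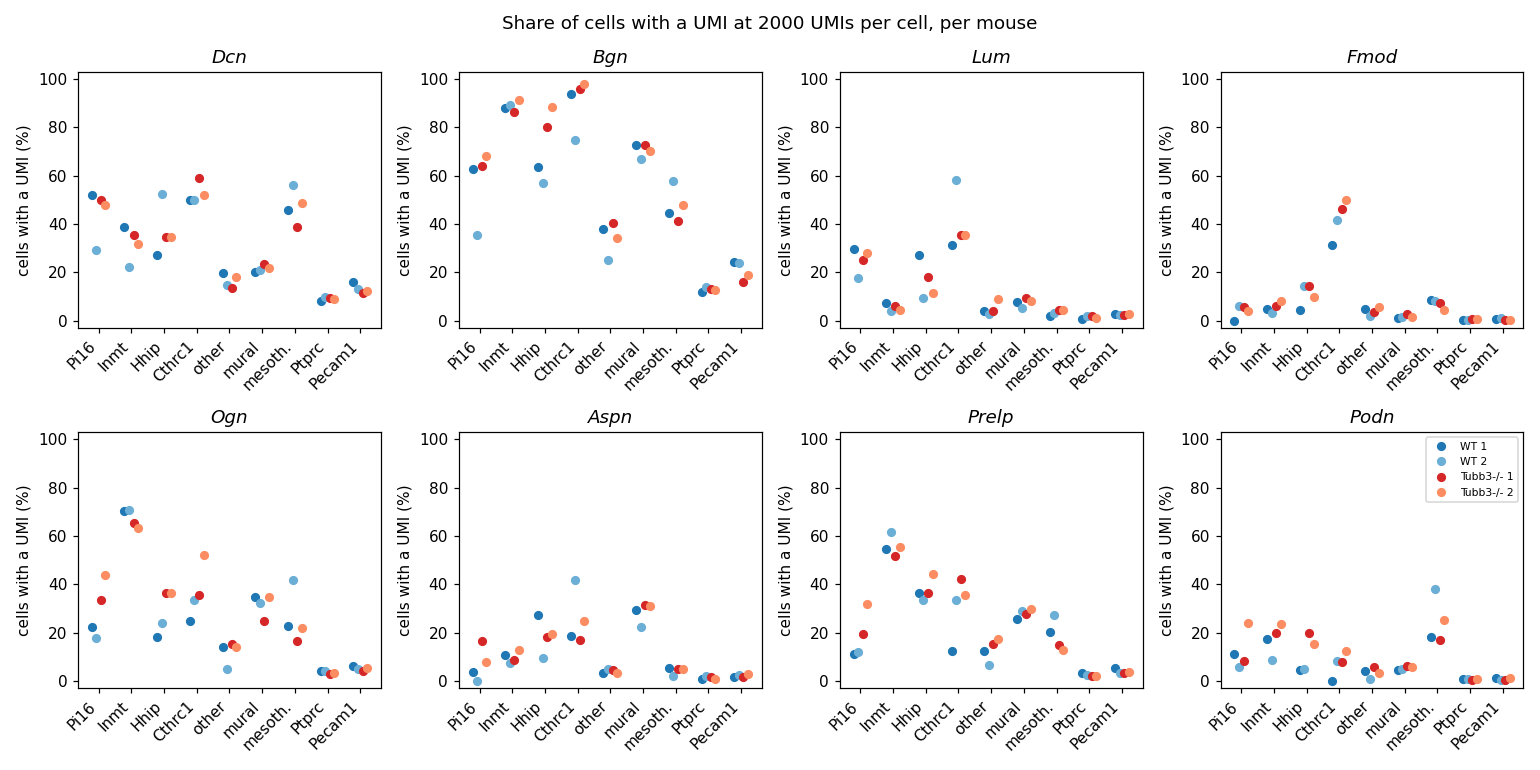
Share of cells with at least 1 UMI of each gene after thinning to 2000 UMIs per cell, per mouse (blues: WT, reds: Tubb3-/-), in the 7 groups and in Ptprc and Pecam1 cells, which should lack these genes. Fmod marks 31.2% to 50.0% of Cthrc1 cells and at most 14.5% of any other group, and Aspn 22.2% to 31.4% of mural cells.

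Over all Pdgfra cells the shares with a UMI after thinning were a mean of 73.4% for Bgn, 47.4% for Ogn, 40.9% for Prelp and 30.3% for Dcn. They were 12.3% for Podn, 9.69% for Aspn, 9.3% for Lum and 8.13% for Fmod. In Ptprc cells the same genes, in the same order, had 12.9%, 3.5%, 2.51%, 9.03%, 0.737%, 1.32%, 1.46% and 0.426%, so each share in Pdgfra cells was above this background. Thinning left out 22 Pdgfra cells and 96 Ptprc cells with fewer UMIs, and median depth was 13268 to 17760 UMIs per Pdgfra cell. The unthinned means in Pdgfra cells were 86.1%, 69.1%, 68.9%, 64.6%, 40.3%, 29.3%, 22.1% and 24.8%.

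The genotypes were compared within each group, 2 mice against 2, to ask whether loss of Tubb3 changed these genes after bleomycin. Among all Pdgfra cells Fmod and Ogn had the lowest p-values, in opposite directions, while by size Lum (0.81) and Aspn (0.69) came after Fmod and before Ogn. Fmod had 37.22 and 29.81 CPM in WT and 91.15 and 83.27 CPM in Tubb3-/- mice, so that both Tubb3-/- mice were above both WT mice. The log2 difference was 1.41 ± 0.17 and did not pass the threshold (adjusted p = 0.132 over 14480 genes by edgeR). Ogn had 670.4 and 876.5 CPM in WT and 458.4 and 542.2 CPM in Tubb3-/- mice, which do not overlap either, and its log2 difference of -0.59 ± 0.16 did not pass (adjusted p = 0.208). DESeq2 called both (Fmod adjusted p = 6.15e-07, Ogn adjusted p = 0.0351), and without WT 1 edgeR called Fmod, Lum and Podn, without WT 2 Fmod alone. With a WT mouse left out, here and in the other groups, the lone WT mouse is assumed to vary like the Tubb3-/- mice, and such calls are not taken as support. The Cthrc1 state was 3.69% and 2.27% of the Pdgfra cells of the WT mice, against 12.6% and 9.56% for Tubb3-/-, and the part of this makeup in the Fmod difference was not tested.

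Within the Inmt state alone Fmod had 22.89 and 17.88 CPM in WT against 44.52 and 45.47 CPM in Tubb3-/- mice, a log2 difference of 1.15 ± 0.18 that did not pass (adjusted p = 0.0993 by edgeR). DESeq2 gave an adjusted p of 0.0123 for it, and edgeR one of 0.0372 without cells of other lineages. With WT 2 as the lone WT mouse, whose spread is then assumed from the Tubb3-/- mice, edgeR called Fmod (1.40) and Podn (1.23) in this state. Within Cthrc1 cells, at 286.9 and 405.5 against 303.9 and 334.8 CPM, the genotypes overlapped (-0.085 ± 0.24, adjusted p = 0.979). The difference between these effects was -1.13 ± 0.30 and was not called (adjusted p = 0.347). Of the 8 genes 0 had a called difference of effects between Cthrc1 and Inmt cells by edgeR or DESeq2, beside 0.024% of 12497 genes by edgeR. By unadjusted p under 0.05 edgeR counted 7.18% of all genes, and of the 8 these were Ogn (1.15 ± 0.30), Fmod and Prelp (0.89 ± 0.25). With 1 mouse left out at a time, Ogn ranged from 0.77 to 1.57, Fmod from -1.69 to -0.60 and Prelp from 0.75 to 1.04. Without cells of other lineages edgeR called 1 of the 8, Fmod.

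Ogn in Inmt cells was lower in both Tubb3-/- mice (714.4 and 818.7 CPM) than in both WT mice (1007 and 1221 CPM), with a log2 difference of -0.53 ± 0.15 that did not pass (adjusted p = 0.223 by edgeR). Genotypes did not overlap for 3 genes higher in Tubb3-/- mice in this group, Bgn, Fmod and Podn, and for 2 lower, Ogn and Prelp. Among 8941 genes with at least 10 CPM, 24.0% had both Tubb3-/- mice higher and 23.4% both lower. The median log2 difference of the 8 genes was 0.00045, against -0.0038 over all genes.

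Lum was the gene with the largest differences in mural and mesothelial cells. It had 83.01 and 48.22 CPM in mural cells of WT mice and 187.2 and 143.8 CPM in those of Tubb3-/- mice, and 14.98 and 15.56 against 51.7 and 40.87 CPM in mesothelial cells. Both Tubb3-/- mice were above both WT mice in each group, although the WT values of mesothelial cells were within the background of Ptprc cells. The log2 differences were 1.31 ± 0.32 in mural (adjusted p = 0.409) and 1.60 ± 0.21 in mesothelial cells (adjusted p = 0.193), and edgeR called neither. DESeq2 called both (adjusted p = 0.00509 and 0.0101), and without WT 1 edgeR called Lum, Bgn and Aspn in mural cells. In Inmt cells Lum differed by 0.017 ± 0.24 (adjusted p = 0.986) and in Cthrc1 cells by -0.023 ± 0.33.

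Mural cells were the group with the most genes on one side. All genes but Ogn had both Tubb3-/- mice above both WT mice, which makes 7 of 8 higher and 0 lower, while among 9462 genes with at least 10 CPM 23.1% were higher and 15.7% lower in this way. The 7 differences were small for most, from 0.086 ± 0.095 for Prelp to 1.31 for Lum, with Aspn at 0.67 ± 0.26 (adjusted p = 0.607 by edgeR). Aspn had 392.9 and 251.7 CPM in WT and 495.9 and 541.2 CPM in Tubb3-/- mice. With 2 UMIs per marker 6 genes were higher in this way and 0 lower. The fibrotic fibroblast markers of the mural group, none of which is in the set, had 1502 to 2683 CPM, and their part in these differences was not tested.

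In the remaining groups edgeR also called 0 of the genes. Bgn (0.89), Fmod (1.28), Prelp (0.62) and Podn (1.33) had p under 0.05 without adjustment in Hhip cells, Prelp (0.59) and Podn (1.38) in Cthrc1 cells, Ogn (1.12) in Pi16 cells and Aspn (1.11) in other Pdgfra cells, all higher in Tubb3-/- mice, and Prelp was lower in mesothelial cells (-0.61). Fmod was too low for the filter in Pi16 cells, where 7 genes were tested. Among other Pdgfra cells WT 2 was far below the other mice for Bgn (123.1 against 589.5 to 1138 CPM), Prelp (20.89 against 85.22 to 152 CPM) and Podn (4.476 against 22.6 to 35.87 CPM), and edgeR called 5 genes without WT 1, when WT 2 stood alone for its genotype. In Hhip cells edgeR called Bgn and Aspn without WT 1 and Fmod without WT 2, and no call of the 8 genes appeared in Pi16 or Cthrc1 cells in any alternative.

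**Figure D5:**
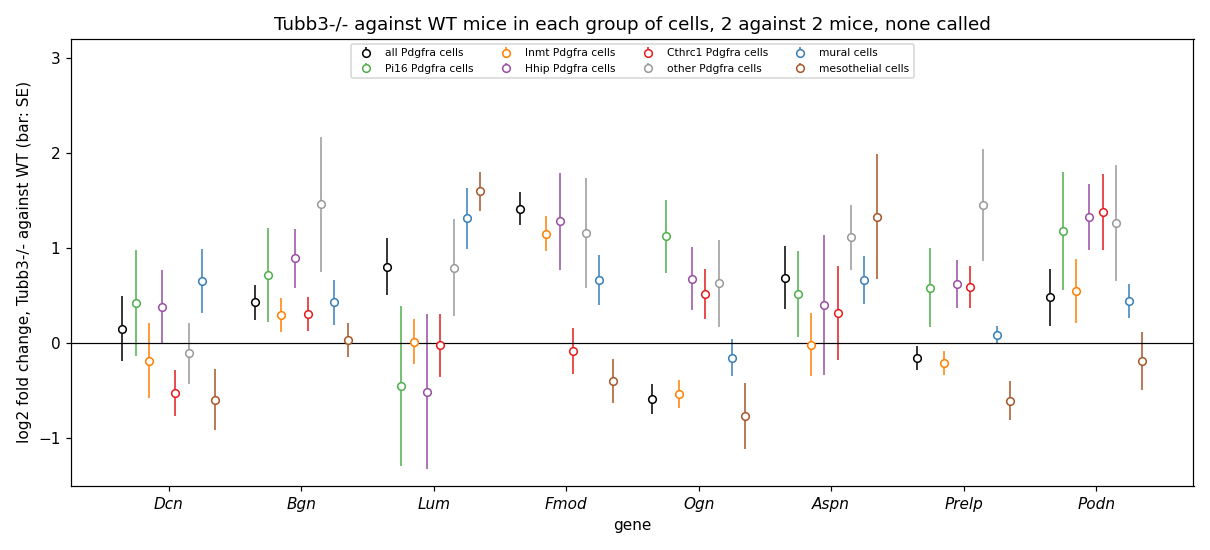
Log2 fold change of each gene in Tubb3-/- against WT mice in 8 groups of cells (edgeR, 2 against 2 mice), with bars for the SE, and no point called. Fmod, not tested in Pi16 cells, lies above 0 in all other groups but Cthrc1 and mesothelial cells, and Lum is highest in mesothelial (1.60) and mural cells (1.31).

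These counts of 0 stand beside few calls among all genes. edgeR called 0.0464% of all genes between genotypes in Inmt cells and 0% in all Pdgfra, Pi16, Hhip, Cthrc1, other Pdgfra, mural and mesothelial cells. Without adjustment 15.9% of genes had p under 0.05 in all Pdgfra, 3.1% in Pi16, 13.9% in Inmt, 12.7% in Hhip, 6.41% in Cthrc1, 13.8% in other Pdgfra, 8% in mural and 7.32% in mesothelial cells. DESeq2 called 298, 2, 180, 52, 7, 74, 119 and 53 genes in the same order, among them 2, 0, 1, 0, 0, 0, 1 and 1 of the 8. Median depth per cell was higher in Tubb3-/- mice in most groups, and its part was not tested.

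Genes that act with the family were read from lists of enzymes, proteases, collagens, receptors and growth factors. No gene of any list was called between genotypes in any group by edgeR. DESeq2 called 5 collagens in all Pdgfra cells, 3 in mural and 2 in mesothelial cells, and at most 2 genes of any other list in a group. The collagen list, the fibrils that SLRPs coat, had all 10 genes tested and its median log2 difference was between 0.20 (Cthrc1 cells) and 1.44 (other Pdgfra cells), against -0.035 to 0.0032 over all genes. Without adjustment edgeR had 6 of 10 collagens higher in Tubb3-/- mice at p under 0.05 in all Pdgfra cells, 8 in mural, 6 in mesothelial, 7 in other Pdgfra, 5 in Hhip and 3 in Inmt cells, and 0 lower in these, while Pi16 and Cthrc1 cells each had 1 higher and 1 lower. The shares of all genes at that p, in either direction, are those given above, from 3.1% to 15.9%. The counts between cell groups, here and in the lists below, stand beside these shares of all genes called by edgeR. Against Inmt cells they were 16.6% in Cthrc1, 21.9% in Pi16, 3.32% in Hhip, 29.4% in mural and 39.7% in mesothelial cells. Against Pi16 cells they were 24.3% in Cthrc1 and 11.5% in mesothelial cells. In Cthrc1 against Inmt cells 5 collagens were called higher and 1 lower (median 0.73), with Col12a1 at 2.34 ± 0.33, Col1a1 at 1.85 ± 0.25 and Col5a1 at 1.46 ± 0.23 higher and Col14a1 at -1.24 ± 0.37 lower. In mural cells 8 of 10 and in mesothelial cells 10 of 10 collagens were called lower than in Inmt cells. In Pi16 cells 1 was higher, Col14a1 (1.00 ± 0.32), and 4 were lower, and in Hhip cells 0 of 10 were called by edgeR, 1 by DESeq2 and 1 by edgeR without adjustment. Against Pi16 cells, Cthrc1 cells had 9 higher and 1 lower, and mesothelial cells 7 lower.

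Of 22 enzymes that build and sulfate chondroitin and dermatan sulfate chains, 20 were tested. In Cthrc1 against Inmt cells 5 were higher and 1 lower (median 0.21), among them the sulfotransferase genes Chst11 (1.14 ± 0.34, adjusted p = 0.0228) and Chst12 (0.96 ± 0.27), and Csgalnact1 (1.05 ± 0.22), which starts the chain, while Chst3 was lower (-1.99 ± 0.49). In mural cells 1 was higher and 10 lower (29.4% of all genes called), with Dse, the epimerase that makes dermatan sulfate, at -1.34 ± 0.15. In mesothelial cells 2 were higher and 11 lower (39.7% of all genes called), with Dse at -1.72 ± 0.16. Pi16 cells had 2 higher, Xylt1 (1.37 ± 0.28) and Chsy1 (0.55 ± 0.20), and 4 lower, and Hhip cells 1 higher and 1 lower. Against Pi16 cells 5 were higher and 1 lower in Cthrc1 cells, and 4 lower in mesothelial cells.

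Of 11 proteases and their cofactors that cleave SLRPs, 10 were tested. Htra1 (2.42 ± 0.34), Bmp1 (1.65 ± 0.17), which removes the propeptide of biglycan, and Mmp14 (1.20 ± 0.20) were among 4 higher in Cthrc1 than in Inmt cells, and Mmp3 (-2.98 ± 0.59) and Pcolce2 (-2.42 ± 0.38) were the 2 lower (median 0.25). In mural and in mesothelial cells 2 were higher and 5 lower (29.4% and 39.7% of all genes called). In Pi16 cells 5 were lower (21.9%) and in Hhip cells 2 lower (3.32%). Against Pi16 cells 4 were higher in Cthrc1 cells, and 1 was higher and 5 were lower in mesothelial cells.

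Of 10 receptors that bind SLRPs or clear them, 3 were lower and 0 higher in Cthrc1 than in Inmt cells by edgeR (6 and 0 without adjustment, 3 in all by DESeq2), Tlr4 (-1.07 ± 0.34), Egfr (-0.76 ± 0.22) and Lrp1 (-0.75 ± 0.16), with a median of -0.75. Mural and mesothelial cells each had 3 higher, Met, Kdr and Erbb4, and 3 lower, Mrc2, Lrp1 and Egfr (29.4% and 39.7% of all genes called). Mural and mesothelial cells had 240.5 to 744.2 and 219.6 to 658.7 CPM of endothelial markers, against 64.77 to 154.8 in Inmt cells. Epithelial markers were at 1675 to 7010 and 4409 to 7286 CPM, against 205.6 to 4078. Immune markers were at 167.9 to 342.2 CPM in Cthrc1 and 2034 to 3902 in Inmt cells. The part of other cells in these receptor differences was not tested. Pi16 cells had 1 higher and 3 lower and Hhip cells 2 lower. Of 6 genes of TGF-beta, which decorin, biglycan and asporin bind, the ligands Tgfb2 (1.79 ± 0.29), Tgfb1 (1.34 ± 0.34) and Tgfb3 (1.28 ± 0.21) were higher and the receptors Tgfbr3 (-1.61 ± 0.25) and Tgfbr2 (-0.47 ± 0.15) lower in Cthrc1 than in Inmt cells. In mural cells 1 was higher and 2 lower, in mesothelial cells 1 higher and 4 lower, in Pi16 cells 1 higher and 3 lower and in Hhip cells 1 lower. Of 10 other SLRP genes only 4 passed the filter, with 0 called in Cthrc1 cells by edgeR or DESeq2 (1 without adjustment), 2 higher and 2 lower in mural cells, where Ecm2 was at 0.90 ± 0.17, and 2 lower in mesothelial cells, where it was at -1.87 ± 0.20. Pi16 cells had 0 called by edgeR or DESeq2 (1 without adjustment) and Hhip cells 1 lower.

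The genes whose levels ran most like those of each SLRP over the 28 sums are given as a description, with Pearson's r of log2(CPM + 1). For Fmod they were Smco4 (r = 0.885), Serf1 (0.873) and Tmem59 (0.857), for Lum Oaf (0.863), Islr (0.826) and Col5a1 (0.819), and for Dcn Fbln2 (0.804), Cygb (0.772) and Serpinf1 (0.748). For Bgn they were Loxl1 (0.974), Col3a1 (0.962) and Serpinh1 (0.961). For Ogn they were Poglut3 (0.923), Pla2r1 (0.883) and Fxyd1 (0.875), and for Prelp Poglut3 again (0.922), Mxra8 (0.913) and Myh10 (0.909). For Aspn they were Olfml2b (0.867), Prdx4 (0.863) and Angptl2 (0.851), and for Podn Gpc3 (0.901), Efemp1 (0.886) and Gas6 (0.876). Among the 8 genes the pairs after Ogn and Prelp were Bgn with Prelp (0.872) and Bgn with Ogn (0.763), and the lowest was Lum with Podn (-0.232). The sums share libraries, depth and the mice, so that these values describe these cells only.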

How the data were processed

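The authors deposited raw UMI counts per gene and cell of 8 libraries, made with Cell Ranger 7.1.0 on mm10 per the submitters' processing notes; the files also list a Cre gene. The deposited counts are whole numbers without normalization or correction for background RNA. The labels gave genotype and mouse number. Cells were kept within 200 to 7500 genes and up to 15% mitochondrial UMIs, and genes if found in 3 or more cells. Doublets by Scrublet (scanpy 1.11.5), 169 (1.19%) in the whole-cell and 673 (4.03%) in the enriched pool, were left out. The libraries of a mouse were summed.

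The test of sums per mouse and group was the two-sided quasi-likelihood F test of edgeR 4.0.16 (R 4.3.3) after filterByExpr and TMM. P-values were adjusted after Benjamini and Hochberg over every gene of a fit, with a threshold of 0.05. Each genotype comparison was its own fit over 4 mice. The 7 comparisons of cell groups came from 1 fit over 28 sums with the mouse as a block. 1 interaction term was tested in addition. edgeR was tried on simulated counts, and DESeq2 1.42.0 was not. The mice are the replicates, and the libraries of 1 mouse are not. Alternatives were DESeq2, no TMM factors, no filter, doublets kept, 2 UMIs per marker, no cells of other lineages, each kind of library alone, the replicate number as a block, and each mouse left out.

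The 8 genes, the lists and the rules were chosen with earlier results of these data known. Named were all 8 genes, at most 3 called genes in each direction per list and comparison (mean of 10 CPM or more), and the 3 genes most like each SLRP. Sftpc was named after its values were seen. Coordinates come from GENCODE vM21 (mm10) and sequences from the RefSeq table. Thinning drew 2000 UMIs per cell, and shares and sums carry counting error besides the spread between mice.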

Additional observations from a re-analysis of the deposited data

Results flagged for a closer look

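For 4 genes, every Tubb3-/- mouse lay above every WT mouse in 1 group of cells and below every WT mouse in another. Such separation was common among all genes with at least 10 CPM. In the 7 groups 14.9% to 24.7% of them had both Tubb3-/- mice higher, and 15.2% to 23.4% both lower. The share of all genes with such a pair of groups was not counted. None of the differences between groups of the 4 genes was tested, except where named in the report, and no cause was tested. Dcn was higher in Tubb3-/- mice in mural cells, at 201.4 and 349.6 against 369.9 and 507.9 CPM with the lower value of each genotype first. It was lower in Tubb3-/- mice in Cthrc1 cells (1911 and 2670 against 1339 and 1817 CPM). The log2 differences of the genotypes were 1.17 apart, in the only such pair of groups. The WT 2 value in mural cells was within the background of endothelial cells. Fmod had 5 such pairs of groups, and the widest was Hhip cells (higher in Tubb3-/- mice) against mesothelial cells (lower), 1.68 apart. Ogn had 2 such pairs, and the wider was Pi16 cells, at 119 and 80.12 against 222.8 and 212.6 CPM, with Inmt cells, at 1007 and 1221 against 714.4 and 818.7 CPM, which were 1.66 apart. With 2 UMIs per marker the genotypes overlapped for Ogn in Pi16 cells. Prelp had 9 such pairs, and the widest was the other Pdgfra cells against mesothelial cells, 2.06 apart, where WT 2 stood lowest in the former (20.89 CPM) and highest in the latter (176.3 CPM).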

How the results depend on the processing

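Of 34 calls of the 8 genes between groups of cells, 18 held in every alternative. Keeping doublets changed no call and no sign. With 2 mice per genotype, and with 12 and 16 Cthrc1 cells in the WT mice, small differences between genotypes were not detectable. The cause of the changes below was not tested. The replicate number pairs mice by name only, since 2 pairs do not show a shared origin. Pairs of groups are given as the first against the second, and values are log2 differences. With DESeq2, the number of genes called was 2 for genotypes in all Pdgfra cells, 1 for genotypes in Inmt cells, 1 for genotypes in mural cells, 1 for genotypes in mesothelial cells and 4 for mesothelial against Pi16, and the log2 difference changed sign to Aspn 0.022 for Pi16 against Inmt. At 2 UMIs per marker, the number of genes called was 6 for Hhip against Inmt, 3 for Cthrc1 against Pi16, 7 for mesothelial against Inmt and 7 for mesothelial against Pi16, and the log2 difference changed sign to Dcn -0.54 and Aspn -0.34 for genotypes in Pi16 cells, Dcn 0.10 and Aspn 0.42 for genotypes in Inmt cells, Dcn -0.73, Ogn -0.087 and Aspn -0.22 for genotypes in Hhip cells, Aspn -0.56 for genotypes in Cthrc1 cells, Lum -0.13 for genotypes in other Pdgfra cells, Fmod 0.046 and Podn 0.18 for genotypes in mesothelial cells, Fmod 0.61, Aspn 1.37 and Podn 0.052 for Pi16 against Inmt, Ogn -0.04 for Cthrc1 against Pi16, Ogn -0.47 and Prelp -0.53 for mesothelial against Pi16 and Bgn -0.16, Lum -0.65 and Aspn -0.91 for the difference of genotype effects. In the mural cell-enriched libraries alone, the number of genes called was 1 for Hhip against Inmt, 4 for Cthrc1 against Inmt, 2 for Cthrc1 against Pi16 and 1 for the difference of genotype effects, and the log2 difference changed sign to Aspn 0.081 for genotypes in Inmt cells, Fmod 0.0199 and Ogn -0.12 for genotypes in Cthrc1 cells, Ogn -0.14 for genotypes in other Pdgfra cells, Aspn 0.41 for Pi16 against Inmt, Podn 0.21 for Cthrc1 against Pi16, Prelp -0.27 for mesothelial against Pi16 and Lum -0.68 for the difference of genotype effects. In the whole-cell libraries alone, the number of genes called was 0 for Hhip against Inmt and 4 for mesothelial against Pi16, and the log2 difference changed sign to Prelp 0.071 for genotypes in all Pdgfra cells, Prelp -0.017 for genotypes in Pi16 cells, Lum -0.30 for genotypes in Inmt cells, Lum 0.42 and Aspn -0.16 for genotypes in Cthrc1 cells, Dcn 0.041 for genotypes in other Pdgfra cells, Fmod -0.13 and Ogn 0.13 for genotypes in mural cells, Bgn -0.0049 for genotypes in mesothelial cells, Dcn -0.17 for Hhip against Inmt, Fmod -0.0401 for mesothelial against Inmt and Bgn -0.20 and Aspn -0.055 for the difference of genotype effects. Without TMM factors, the log2 difference changed sign to Aspn 0.052 for Pi16 against Inmt and Bgn -0.023 and Lum -0.018 for the difference of genotype effects. Without the filter on low counts, the number of genes called was 4 for genotypes in all Pdgfra cells, 3 for genotypes in Inmt cells, 4 for genotypes in other Pdgfra cells and 2 for the difference of genotype effects, and the log2 difference changed sign to Aspn 0.0056 for genotypes in Inmt cells, Lum 0.066 and Fmod 0.0033 for genotypes in Cthrc1 cells, Dcn -0.11 for Hhip against Inmt and Bgn -0.056 for Cthrc1 against Inmt. With the replicate number as a block (mouse 1 or 2), the number of genes called was 3 for genotypes in all Pdgfra cells, 1 for genotypes in Inmt cells, 1 for genotypes in mural cells and 1 for genotypes in mesothelial cells, and the log2 difference changed sign to Lum 0.082 for genotypes in Pi16 cells and Lum 0.07 for genotypes in Cthrc1 cells. Without cells of other lineages, the number of genes called was 1 for genotypes in all Pdgfra cells, 1 for genotypes in Inmt cells, 1 for genotypes in mesothelial cells, 6 for Hhip against Inmt, 2 for Cthrc1 against Pi16 and 1 for the difference of genotype effects, and the log2 difference changed sign to Lum 0.19 for genotypes in Pi16 cells, Dcn 0.19 and Aspn 0.078 for genotypes in Inmt cells, Lum -0.13 and Ogn -0.33 for genotypes in other Pdgfra cells, Fmod 0.033 and Podn 0.037 for genotypes in mesothelial cells, Fmod 0.48 and Aspn 1.01 for Pi16 against Inmt, Ogn -0.051 for Cthrc1 against Pi16, Lum 0.08 for mesothelial against Inmt, Ogn -0.22 and Prelp -0.062 for mesothelial against Pi16 and Bgn -0.058 and Lum -0.79 for the difference of genotype effects. Without the mouse as a block, 5 genes were called for Pi16 against Inmt and 5 for Cthrc1 against Pi16. Without thinning, the mean share of all Pdgfra cells with a UMI was 64.6% for Dcn, 86.1% for Bgn, 22.1% for Lum, 24.8% for Fmod, 69.1% for Ogn, 29.3% for Aspn, 68.9% for Prelp and 40.3% for Podn.

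Leaving out 1 mouse at a time, the number of genes called ranged from 0 to 3 for genotypes in all Pdgfra cells, from 0 to 2 for genotypes in Inmt cells, from 0 to 2 for genotypes in Hhip cells, from 0 to 5 for genotypes in other Pdgfra cells, from 0 to 3 for genotypes in mural cells, from 0 to 3 for Hhip against Inmt, from 2 to 5 for Cthrc1 against Pi16, from 2 to 4 for mesothelial against Pi16 and from 0 to 3 for the difference of genotype effects. Log2 differences whose sign depended on 1 mouse ranged as follows. For genotypes in all Pdgfra cells, these were Dcn -0.28 to 0.80. For genotypes in Pi16 cells, these were Lum -1.26 to 1.53 and Dcn -0.14 to 1.37. For genotypes in Inmt cells, these were Dcn -0.69 to 0.63, Aspn -0.41 to 0.45 and Lum -0.31 to 0.43. For genotypes in Hhip cells, these were Lum -1.34 to 1.53, Aspn -0.41 to 2.35 and Dcn -0.0059 to 0.91. For genotypes in Cthrc1 cells, these were Aspn -0.34 to 1.33, Lum -0.49 to 0.69 and Fmod -0.36 to 0.26. For genotypes in other Pdgfra cells, these were Dcn -0.47 to 0.40. For genotypes in mural cells, these were Ogn -0.43 to 0.079. For genotypes in mesothelial cells, these were Bgn -0.17 to 0.25, Dcn -1.02 to 0.0204 and Podn -0.59 to 0.38. For Pi16 against Inmt, these were Aspn -0.22 to 0.10. For Hhip against Inmt, these were Dcn -0.22 to 0.20. For Cthrc1 against Pi16, these were Dcn -0.59 to 0.23. For mesothelial against Inmt, these were Fmod -0.21 to 0.52. For mesothelial against Pi16, these were Ogn -0.29 to 0.88 and Prelp -0.33 to 0.44. For the difference of genotype effects, these were Bgn -0.042 to 0.20, Lum -0.86 to 1.06, Aspn -0.75 to 1.73 and Dcn -1.35 to 0.57.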
